A study of Mus musculus with 6 samples.

Results

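The chemokine ligands described here are 9 genes of 35027 in the expression table: Cxcl1, Cxcl2, Cxcl3 and Cxcl5, whose products attract neutrophils, the transmembrane chemokines Cx3cl1 and Cxcl16, and Cxcl12, Cxcl14 and Cxcl17, which are mostly made without an inflammatory stimulus. They were chosen by symbol, and each symbol matched 1 row. Their RNA was measured by RNA-seq in tumor cells that were dissociated from mouse thyroid and sorted for the fluorescent protein Kate, in 2 genotypes with 3 libraries each. YAP mice carried a Cre active in thyroid follicular cells, a Cre-dependent cassette for the doxycycline (dox) transactivator and Kate (RIK), and a tetO transgene for YAPS127A, a mutant of the Hippo pathway coactivator that stays in the nucleus. BrafYAP mice carried the same alleles and, in addition, LSL-BrafV600E, an oncogenic Braf allele that Cre switches on at the endogenous gene. Per the labels, dox chow was given from 4 weeks of age in all groups, about 20000 cells were sorted per library, each YAP library pooled 3 tumors and each BrafYAP library was 1 tumor, so that pooling and genotype cannot be told apart. The paper instead describes 1 tumor from each mouse as a replicate, and it gives both 4 weeks and 3 months as the age at the start of dox. The labels were followed here. The age at collection is not given in the labels. The libraries are named by their replicate numbers: YAP 1, YAP 2 and YAP 3, and BrafYAP 1, BrafYAP 2 and BrafYAP 6.

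Chemokines are small secreted or membrane-tethered proteins that guide leukocytes along their gradients through G protein-coupled receptors. CXCL1, CXCL2, CXCL3 and CXCL5 carry the residues ELR before their first cysteines and act on CXCR2, the main chemokine receptor of neutrophils, and their genes are classical targets of NF-kB, induced by IL-1, TNF and IL-17. CX3CL1 binds CX3CR1 on monocytes and macrophages, CXCL16 binds CXCR6 on lymphocytes, and both are made as transmembrane proteins that ADAM10 and ADAM17 cut from the cell surface. CXCL12, a product of stromal cells, binds CXCR4 and the scavenging receptor ACKR3, while CXCL14 is made by many epithelia and CXCL17 by mucosal epithelia.

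Cxcl1, Cxcl2, Cxcl3 and Cxcl5 lie in a single cluster on mouse chromosome 5 (mm10, plus strand), with Cxcl5 at chr5:90759360-90761624, Cxcl3 at chr5:90786103-90789600, Cxcl1 at chr5:90891241-90893115 and Cxcl2 at chr5:90903871-90905938. The promoters of Cxcl1, Cxcl2 and Cxcl3 are shown because they hold matches to the motif of NF-kB, which induces these genes. These are the 120 bases before each start site, from RefSeq (GRCm38.p6), 5′ to 3′ on the plus strand, with matches to the NF-kB motif GGNNTTTCC on either strand in capitals.
Cxcl1, chr5:90891125-90891244: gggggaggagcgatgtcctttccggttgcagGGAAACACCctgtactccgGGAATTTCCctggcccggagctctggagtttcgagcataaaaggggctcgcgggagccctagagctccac
Cxcl2, chr5:90903779-90903898: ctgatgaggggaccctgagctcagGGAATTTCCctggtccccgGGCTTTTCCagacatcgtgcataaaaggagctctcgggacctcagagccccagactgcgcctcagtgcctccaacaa
Cxcl3, chr5:90785981-90786100: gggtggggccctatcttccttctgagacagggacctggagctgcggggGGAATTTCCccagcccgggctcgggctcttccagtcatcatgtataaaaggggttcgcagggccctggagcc
All 3 promoters held the same match, GGAATTTCC, at base -70 from the start in Cxcl1, -96 in Cxcl2 and -72 in Cxcl3. Cxcl1 and Cxcl2 each held a further match, at -89 on the minus strand and at -77. Over the window of 250 bases before to 50 after the start, the promoters of Cxcl12, Cxcl14 and Cx3cl1 held no match, and 5.82% of all 32851 promoters of this length held at least 1. The TEAD motif CATTCC, found in 14.66% of promoters, occurred in Cxcl3 alone among the 6 ligands with a sequence, at -245 on the minus strand. The AP-1 motif TGANTCA, found in 7.81% of promoters, occurred in none of them. A match is a run of letters and was not shown to be a bound site.

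The values given for each library are scaled reads, which are the deposited TPM (transcript abundance relative to gene length and library total) with the division by length undone, so that within a gene they are proportional to TPM. The depth was 26.2 to 36.9 M estimated reads per library. BrafYAP was compared with YAP by limma across all genes, on log2(TPM + 1) for the 6 ligands with a mean TPM of at least 1. For Cxcl5, Cxcl12 and Cxcl17, whose TPM were lower, log2(scaled reads + 1) was used. The deposited TPM were divided by genomic span, introns included. With exonic length the mean TPM of these genes over all libraries were 2.05, 2.58 and 9.12. A result passed the test at an adjusted p-value under 0.05. BrafYAP 6 stood apart from the other libraries in a summed lung epithelial marker list, which was chosen after the data were seen. The sum reached 822935 scaled reads there against 14692 to 41204 in the other 5 libraries.

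With all libraries weighted equally, none of the 9 ligands passed the test between the genotypes (limma, adjusted p-values from 0.103 to 0.950), and 4 of 9 had an unadjusted p-value under 0.05. Across all genes, 0.246% of 7319 passed on TPM, 0% of 16833 passed on scaled reads, and 20.2% of the latter had an unadjusted p-value under 0.05. The gene lists below were counted on scaled reads unless TPM is named, so none of their genes could pass in that fit. In 4 of the 9 ligands the libraries of the 2 genotypes did not overlap, which was the case for 28.7% of all genes tested. Cxcl5, Cxcl12 and Cxcl17 were higher in every BrafYAP library than in every YAP library, as were 11.6% of all genes, and Cx3cl1 was lower in every BrafYAP library, as were 17.1%. The median log2 fold change was -0.04 over the 9 ligands and -0.12 over all genes on scaled reads. With array weights, which let limma weigh down the more variable libraries, Cx3cl1, Cxcl12 and Cxcl17 passed (adjusted p = 0.0183, 0.0376 and 0.0268), as did 19.0% of all genes on TPM and 11.2% on scaled reads. Overlap with a library left out was counted for BrafYAP 6 alone, and this count was not planned. Without BrafYAP 6, the groups did not overlap in 6 of 9 ligands, against 43.5% of all genes. Cxcl1 and Cxcl3, for which BrafYAP 6 was the lowest library, then joined the 3 that were higher (19.0% of all genes). Cx3cl1 remained lower (24.5%), and 5 of 9 ligands had an unadjusted p-value under 0.05 (21.0% of all genes, limma).

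**Figure D1:**
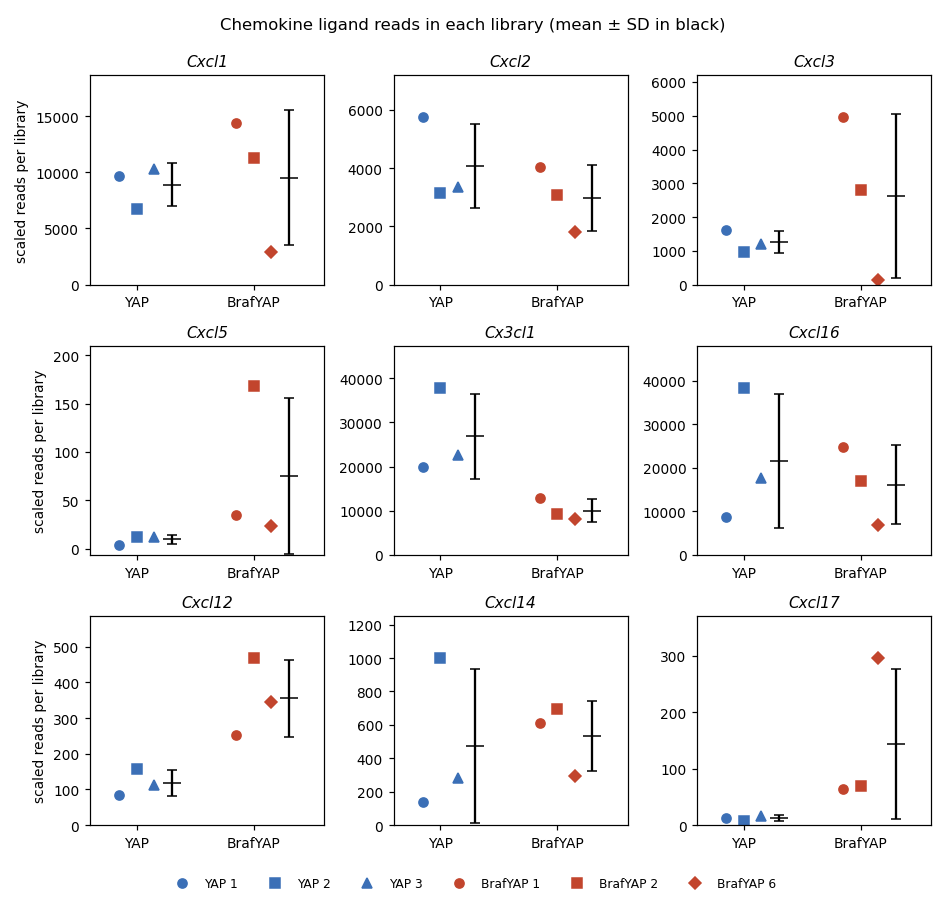
Scaled reads (y axis, linear, 1 panel per gene with its own range) of the 9 ligand genes in each of 3 YAP (blue) and 3 BrafYAP libraries (red), with the mean and SD of each genotype in black (n = 3). The groups do not overlap for Cxcl5, Cxcl12, Cxcl17 and Cx3cl1, and BrafYAP 6 (diamond) is the lowest library for Cxcl1, Cxcl2 and Cxcl3, with 126 scaled reads of Cxcl3 against 4954 in BrafYAP 1.

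Cxcl1, the mouse counterpart of the human GRO chemokines and the most abundant neutrophil attractant here, had 9665, 6758 and 10319 scaled reads in YAP 1, 2 and 3 and 14433, 11315 and 2861 in BrafYAP 1, 2 and 6. BrafYAP 1 and BrafYAP 2 were the highest of the 6 libraries and BrafYAP 6 was the lowest, so that the groups overlapped. On TPM its log2 fold change was -0.17 (SE 0.60, limma adjusted p = 0.898) and 0.54 without BrafYAP 6 (limma adjusted p = 0.417). Cxcl2, encoding macrophage inflammatory protein 2, had 5748, 3143 and 3365 scaled reads in the YAP libraries and 4048, 3087 and 1796 in the BrafYAP libraries. The highest value was that of YAP 1 and the lowest again that of BrafYAP 6, with overlap of the rest. Its log2 fold change was -0.47 (SE 0.39, limma adjusted p = 0.528), and -0.15 without BrafYAP 6.

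Cxcl3, a close relative of Cxcl2, had the widest relative range among the BrafYAP tumors of the 9 ligands. It had 1628, 980.1 and 1192 scaled reads in the YAP libraries, and 4954, 2797 and 126 in the BrafYAP libraries. BrafYAP 1 and BrafYAP 2 lay above every YAP library, and BrafYAP 6 lay below every YAP library. Its difference, as a log2 fold change, was 0.16 on TPM (SE 1.06, limma adjusted p = 0.950), -0.04 on scaled reads and 1.51 without BrafYAP 6 (limma adjusted p = 0.128). Reads of Cxcl1 per read of Cxcl3 were 5.94, 6.90 and 8.66 in the YAP libraries, 2.91 and 4.05 in BrafYAP 1 and BrafYAP 2, and 22.7 in BrafYAP 6. This ratio spanned a wider range among the BrafYAP libraries than among the YAP libraries, through BrafYAP 6. By their labels the YAP libraries were pools of 3 tumors and the BrafYAP libraries single tumors, so the 2 ranges cannot be compared as ranges between tumors. Reads of Cxcl1 per read of Cxcl2 lay between 1.59, in BrafYAP 6, and 3.67, in BrafYAP 2. Of all 50-base stretches of their transcripts, 5.84% of those of Cxcl2 were also found in other genes, all in Cxcl3, and 4.29% of those of Cxcl3 were found in other genes, so that a small share of these reads could have been divided between them, whereas Cxcl1 shared none.

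Cxcl5, which epithelial cells can produce, was the scarcest of the neutrophil attractants. It had 4.11, 12.2 and 12.4 scaled reads in the YAP libraries (4, 10 and 12 estimated reads), and 34.3, 168.0 and 23.1 in the BrafYAP libraries (31, 214 and 26 estimated reads). All 3 BrafYAP libraries were above all YAP libraries, BrafYAP 2 by far the most. BrafYAP exceeded YAP by a log2 fold change of 2.44 on scaled reads (SE 0.88, n = 3 per genotype, limma unadjusted p = 0.0266, adjusted p = 0.191), with a range of 1.59 to 3.00 when each library was left out in turn. It was 1.37 on TPM recomputed with exonic length (limma adjusted p = 0.222). The YAP values rest on few reads, so their precision is limited by counting.

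Other genes of the same cluster lie between these ligands. Counted from the start of Cxcl1, Pf4 and Ppbp, the platelet chemokines CXCL4 and CXCL7, lie at -118.8 and -122.7 kb, and Cxcl15, a lung chemokine, lies at -96.7 kb. Pf4 had 1085, 677 and 472 scaled reads in the YAP libraries and 1885, 1256 and 116 in the BrafYAP libraries. Like Cxcl3, it was highest in BrafYAP 1 and BrafYAP 2 and lowest in BrafYAP 6, with a log2 fold change on TPM of -0.05 (limma adjusted p = 0.983) and of 1.10 without BrafYAP 6 (limma adjusted p = 0.240). Ppbp had 758, 159 and 999 scaled reads in the YAP libraries and 1094, 1048 and 16.9 in the BrafYAP libraries, again with the lowest value in BrafYAP 6, and its log2 fold change on TPM was -0.38 with and 1.00 without that library (limma adjusted p = 0.886 and 0.475). Cxcl15 went the other way, with 897 scaled reads in BrafYAP 6 and 0 to 9.78 in the other 5 libraries.

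**Figure D2:**
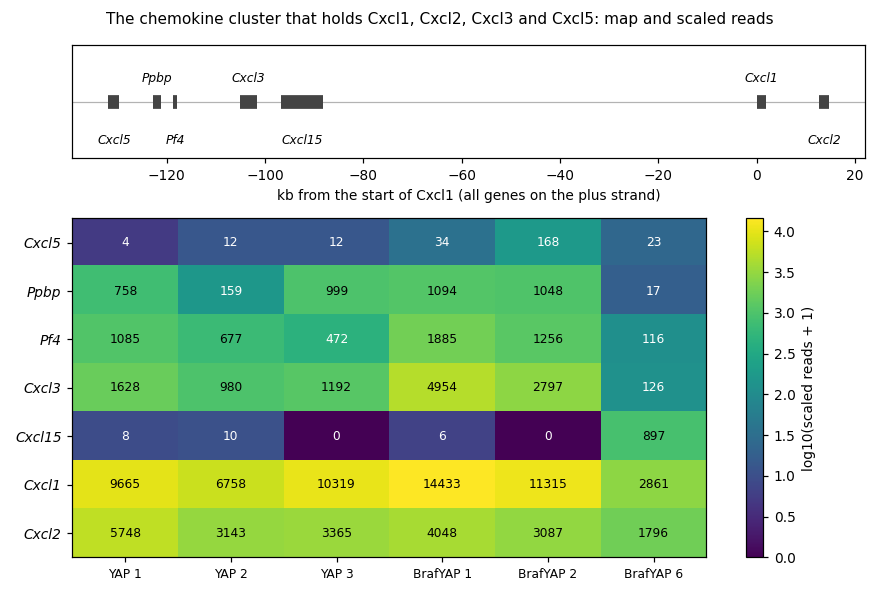
Upper panel: position of 7 chemokine genes of the chromosome 5 cluster in kb from the start of Cxcl1, bars drawn to scale. Lower panel: scaled reads of each gene in each library, printed in the cell and coloured by log10(scaled reads + 1). In BrafYAP 6 the values of Ppbp, Pf4, Cxcl3, Cxcl1 and Cxcl2 are the lowest of the 6 libraries and that of Cxcl15, 897, is the highest.

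Cx3cl1, or fractalkine (chr8:94772009-94782427, plus strand), was the only ligand that was lower in every BrafYAP than in every YAP library. It had 19980.0, 37903 and 22645 scaled reads in the YAP libraries and 12875, 9236 and 8025 in the BrafYAP libraries. No BrafYAP library reached the lowest YAP library, and the group means were 26843 ± 9671 and 10045 ± 2524 (SD, n = 3 each). This was a log2 fold change on TPM of -1.36 (SE 0.34, limma unadjusted p = 0.00509, adjusted p = 0.103), and it stayed between -1.55 and -1.09 when any 1 library was left out, with adjusted p-values from 0.0898 to 0.282. Its receptor gene Cx3cr1 had 4840.5, 6841 and 1549 scaled reads in the YAP libraries and 645, 297 and 50.6 in the BrafYAP libraries. Every BrafYAP library was again below every YAP library, and the log2 fold change on scaled reads was -4.11 (SE 0.97, limma adjusted p = 0.106) and -3.08 without BrafYAP 6. The reads of Cx3cl1 per read of Cx3cr1 were 4.13, 5.54 and 14.6 in the YAP libraries and 20.0, 31.1 and 158.6 in the BrafYAP libraries, so that the ratio was higher in every BrafYAP than in every YAP library.

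Cx3cr1 is carried by macrophages, and the macrophage marker list differed between the groups in the same direction. Cx3cr1 is itself on this list, so its values are part of the counts and sums that follow. All 12 macrophage markers had negative log2 fold changes (median -1.94), while 0 passed the test on scaled reads (limma). Of the 12, 11 had a limma unadjusted p-value under 0.05 (20.2% of all genes) and 9 were lower without overlap (17.1% of all genes). Their summed scaled reads ranged from 225463 to 771024 with YAP alone and from 67958 to 231252 with BrafYAP, and YAP 3, at the low end of the YAP range, was only just under BrafYAP 1. Csf1r, the receptor for the macrophage growth factor CSF1, had 24500.4, 44696 and 11520.1 scaled reads in the YAP and 10143, 6481 and 2766 in the BrafYAP libraries. The part of these cells in the values of Cx3cl1 was not tested. In bulk RNA, fewer cells of a type and less RNA per cell cannot be told apart.

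Cxcl16 (chr11:70453983-70459984, minus strand), the other transmembrane chemokine, also a scavenger receptor for oxidized lipid, did not separate the genotypes. It had 8584, 38430.0 and 17566 scaled reads in the YAP libraries and 24760.3, 16865 and 6769 in the BrafYAP libraries. The highest value was that of YAP 2 and the lowest that of BrafYAP 6, and YAP 1 was close to the latter. Its log2 fold change on TPM was -0.34 (SE 0.66, 95% interval -1.90 to 1.22, limma adjusted p = 0.797), and it turned to 0.20 without YAP 2 and to 0.18 without BrafYAP 6. Of its 50-base stretches, 16.9% are shared with Zmynd15, an overlapping gene on the opposite strand, so that some of its reads may belong to that gene. Cxcr6, its receptor, had 160.3, 77.0 and 24.7 scaled reads in the YAP libraries and 94.2, 64.4 and 179 in the BrafYAP libraries, and the fold change on the log2 scale was 0.60 (SE 0.74, limma adjusted p = 0.671) and 0.20 without BrafYAP 6. Reads of Cxcl16 per read of Cx3cl1 were 0.430, 1.01 and 0.776 in the YAP libraries and 1.92, 1.83 and 0.844 in the BrafYAP libraries, and the groups overlapped through BrafYAP 6.

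Cxcl12 (chr6:117168535-117181367, plus strand), the ligand that retains hematopoietic cells in bone marrow, was low in all libraries and lowest in the 3 YAP libraries. It had 84.3, 157 and 112 scaled reads in the YAP libraries and 254, 469 and 345 in the BrafYAP libraries. All 3 BrafYAP libraries were above all YAP libraries, and the group means were 118 ± 36.4 and 356 ± 108 (SD, n = 3 each). On scaled reads the log2 fold change was 1.59 (SE 0.40, 95% interval 0.66 to 2.52, limma unadjusted p = 0.00473, adjusted p = 0.110), and it stayed between 1.37 and 1.82 with each library left out in turn. Its receptors overlapped between the genotypes. Cxcr4 had 480.0, 292 and 90.6 scaled reads in the YAP and 117, 104 and 68.4 in the BrafYAP libraries, with a log2 fold change on TPM of -0.79 (SE 0.37, limma adjusted p = 0.292). Ackr3 had 2409, 4867 and 2584 scaled reads in the YAP and 2609, 3530.3 and 300.1 in the BrafYAP libraries, with a log2 fold change on TPM of -0.81 (SE 0.66, limma adjusted p = 0.513), which was -0.04 without BrafYAP 6 (limma adjusted p = 0.962).

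CXCL12 is a product of fibroblasts and endothelial cells, and the markers of both were read beside it. The 8 fibroblast markers had a median log2 fold change of 1.04, with 5 positive and 3 negative. Dcn, the matrix proteoglycan decorin, had 2415, 888 and 377 scaled reads in the YAP and 2653, 5801 and 2955 in the BrafYAP libraries, without overlap, whereas Col1a1 had 3981, 6513 and 3025 in the YAP and 1698, 2462 and 835 in the BrafYAP libraries, also without overlap but in the opposite direction. The summed fibroblast markers were 14398 to 28861 in the YAP and 12563 to 28409 in the BrafYAP libraries. The 8 endothelial markers had sums of 392 to 3530 scaled reads with YAP alone and of 185 to 2951 with BrafYAP. None of these markers passed the test (limma). A limma unadjusted p-value under 0.05 was found for 3 of the fibroblast markers and 0 of the endothelial markers (20.2% of all genes). The part of these markers in the Cxcl12 values was not tested.

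Cxcl14 (chr13:56288643-56296551, minus strand), a chemokine of normal epithelia, had 139, 1001 and 284 scaled reads in the YAP libraries and 614, 693 and 297 in the BrafYAP libraries. YAP 2 was the highest and YAP 1 the lowest of the 6, and the BrafYAP libraries lay between them. Its log2 fold change on TPM was 0.27 (SE 0.46, 95% interval -0.82 to 1.35, limma adjusted p = 0.771), and it was -0.10 without YAP 1.

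Cxcl17 (chr7:25400053-25412886, minus strand), a chemokine of mucosal epithelium that is abundant in the airways, showed the largest fold change of the 9 ligands on scaled reads. It had 13.4, 7.34 and 16.5 scaled reads in the YAP libraries (13, 6 and 16 estimated reads) and 64.2, 69.9 and 297 in the BrafYAP libraries (58, 89 and 334 estimated reads). All BrafYAP libraries were above all YAP libraries, with BrafYAP 6 the highest. On scaled reads the log2 fold change was 3.12 (SE 0.72, 95% interval 1.43 to 4.81, limma unadjusted p = 0.00312, adjusted p = 0.103) and 2.41 without BrafYAP 6. Cxcl17 overlaps 4732471J01Rik on the other strand, although none of its 50-base stretches is shared with another gene. Beside it, 8 lung epithelial markers were read, a list chosen after the data were seen, of which 7 were tested and 0 passed (limma). Of these markers, 3 had a limma unadjusted p-value under 0.05 (20.2% of all genes). In every BrafYAP library 3 were higher than in every YAP library (11.6% of all genes). Among those tested, 5 had a positive log2 fold change on scaled reads and 2 a negative one, Scgb3a2 (-0.76) and Ager (-0.51). The sum of the 8 markers was 25882 to 36535 scaled reads in the YAP and 14692 to 822935 in the BrafYAP libraries. Outside BrafYAP 6 it consisted mostly of Ager, with 12554 to 36326. Sftpd, surfactant protein D, had 69.7 to 191 scaled reads in the YAP libraries and 7754, 1870 and 258708 in BrafYAP 1, 2 and 6. Sftpb, Sftpd and Cxcl17 were all highest in BrafYAP 6. Sftpc, the defining surfactant gene of alveolar type 2 cells, was at 0 in 5 libraries and at 450 scaled reads in BrafYAP 6. The part of such cells or of such a program in the Cxcl17 values was not tested.

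**Figure D3:**
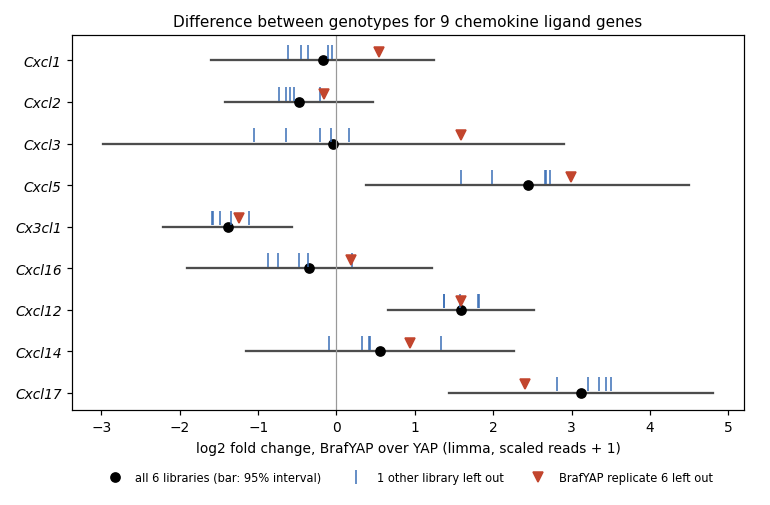
Log2 fold change, BrafYAP over YAP, on log2(scaled reads + 1) for each ligand (black point, limma, n = 3 per genotype) with its 95% interval (bar), the values with 1 library left out (blue ticks) and with BrafYAP 6 left out (red triangles). The intervals of Cxcl5, Cxcl12, Cxcl17 and Cx3cl1 lie on 1 side of 0 without adjustment for the number of genes, and Cxcl1, Cxcl3 and Cxcl16 lie on the other side of 0 without BrafYAP 6.

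Levels of different genes were compared per length, as TPM recomputed with the exonic length of each gene. On this scale Cxcl16, Cxcl1 and Cx3cl1 filled the first 3 places in all 6 libraries, and Cxcl2 had rank 4 in all 6. Their order differed: Cxcl1 was first in YAP 1 (443) and BrafYAP 2 (551), and Cxcl16 was first in YAP 2 (1058), YAP 3 (528), BrafYAP 1 (731) and BrafYAP 6 (199). In YAP 3 the first 3 were close together, with 528 for Cxcl16, 523 for Cx3cl1 and 499 for Cxcl1. Cx3cl1 had rank 3 in BrafYAP 1 and BrafYAP 2, at 292 and 215, and rank 2 in the 3 YAP libraries, at 437, 802 and 523, and in BrafYAP 6, at 181. Cxcl3 had rank 5 in 4 libraries, 6 in YAP 2 and 8 in BrafYAP 6, where Cxcl17 had rank 5 with 34.5. Cxcl5, Cxcl12 and Cxcl17 were at 0.190 to 1.97 with YAP alone and at 1.10 to 34.5 with BrafYAP. Summed over the 9 ligands, the level was 1412, 2359 and 1746 in the YAP libraries and 2052, 1540.5 and 649 in the BrafYAP libraries, so that BrafYAP 6 had the lowest sum and the other libraries of the 2 genotypes overlapped. The 4 neutrophil attractants made up 37.2, 12.3 and 26.8% of the ligands' reads in the YAP libraries and 37.8, 38.9 and 23.4% in the BrafYAP libraries, also with overlap.

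**Figure D4:**
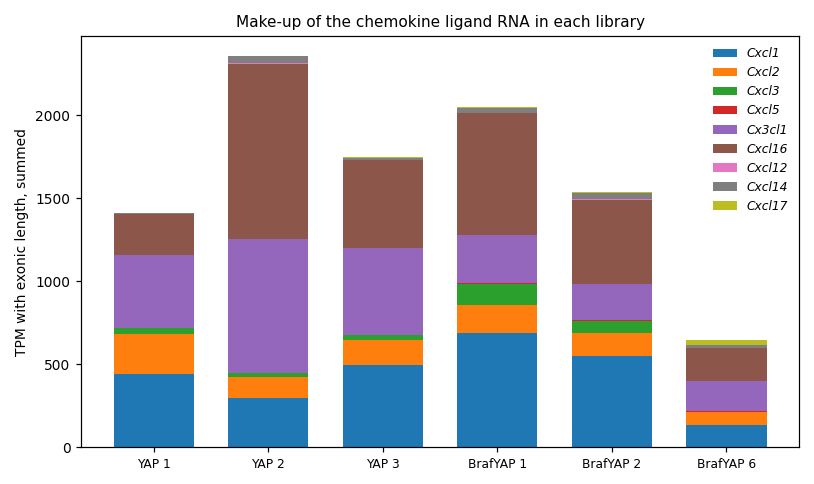
Summed level of the 9 ligands in each library (y axis, TPM with exonic length, linear from 0), with each ligand as a segment of the bar. Cxcl16, Cxcl1, Cx3cl1 and Cxcl2 form most of each bar, the sum runs from 649 in BrafYAP 6 to 2359 in YAP 2, and the Cx3cl1 segment is 437 to 802 in the YAP and 181 to 292 in the BrafYAP libraries.

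The receptor of the neutrophil attractants was barely detected in the sorted cells. Cxcr2 had 0, 14 and 13 estimated reads in the YAP libraries and 4, 0 and 13 in the BrafYAP libraries, and Cxcr1 had 0 in 5 libraries and 5 in BrafYAP 6. Cxcr3, the receptor of interferon-induced ligands, had 6 to 36 estimated reads in the YAP libraries, 0 in BrafYAP 1 and BrafYAP 2 and 65 in BrafYAP 6. The Cxcr5 values were 2.23, 1.57 and 14.2 scaled reads in the BrafYAP and 8.56 to 12.4 in the YAP libraries. Ackr1, a chemokine-binding receptor of endothelium and red cells, had 0 to 26 estimated reads in the YAP libraries and 32, 10 and 100 in the BrafYAP libraries. Of the 9 receptor genes 6 had enough reads to be tested, and 0 passed (limma). Only 1 of them, Cx3cr1, had a limma unadjusted p-value under 0.05 (20.2% of all genes). Their median log2 fold change was -1.23 on scaled reads.

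**Figure D5:**
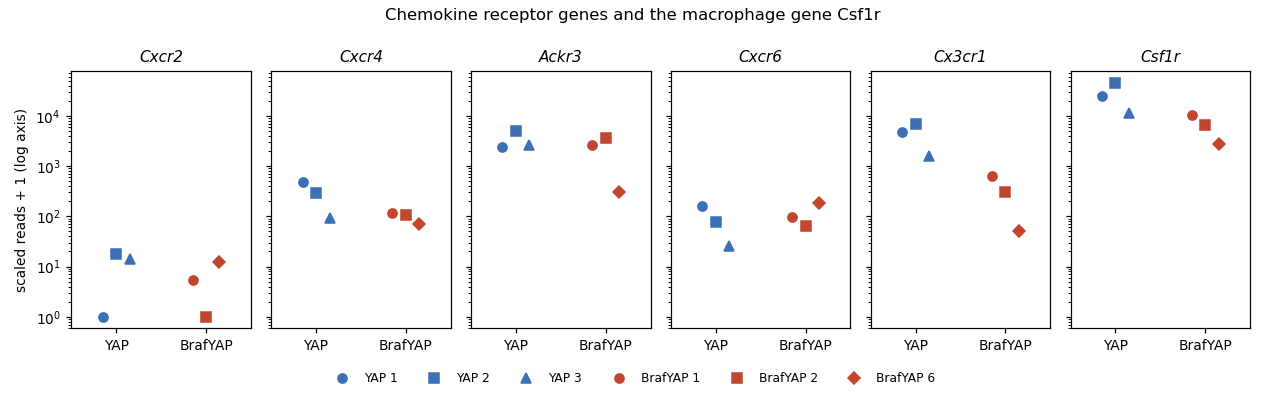
Scaled reads + 1 (log axis) of 5 chemokine receptor genes and of the macrophage gene Csf1r in the 3 YAP (blue) and 3 BrafYAP libraries (red), 1 point per library. Cx3cr1 (1549 to 6841 scaled reads in YAP, 50.6 to 645 in BrafYAP) and Csf1r separate the genotypes, whereas Cxcr2, Cxcr4, Ackr3 and Cxcr6 overlap and Cxcr2 stays at or below 17.1 scaled reads.

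Several markers of neutrophils were scarce in these cells. As the cells were sorted for Kate, the values cannot show how many neutrophils the tumors held. Ly6g, the defining surface marker of mouse neutrophils, was at 0 in all 6 libraries, and the granule genes Camp and Ngp had at most 1 and 5 estimated reads. The 14 neutrophil markers summed to 2432 to 7621 scaled reads in the YAP and to 2247 to 4471 in the BrafYAP libraries, most of them from Trem1 and Il1r2, which other myeloid cells also express. Of 7 tested on scaled reads, 0 passed (limma), as for all genes on that scale. A limma unadjusted p-value under 0.05 was found for 2, Mmp8 and Csf3r (20.2% of all genes). Both were lower in every BrafYAP than in every YAP library (17.1% of all genes). Csf3r, the G-CSF receptor, had 292, 562 and 107 scaled reads in the YAP and 59.8, 3.92 and 20.4 in the BrafYAP libraries. Mmp8 had 147 to 615 in the YAP and 27.5 to 65.9 in the BrafYAP libraries.

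The genes that act on the neutrophil attractants showed no common direction. Among 14 NF-kB subunits and feedback targets 0 passed the test (limma), and 4 had an unadjusted p-value under 0.05 (20.2% of all genes). Without overlap, 3 were higher and 2 lower in BrafYAP (11.6% and 17.1% of all genes). The log2 fold change was positive in 7 and negative in 7, with a median of 0.03. Nfkbia, the NF-kB inhibitor that NF-kB itself induces, had 2341, 16491 and 9097 scaled reads in the YAP and 14999, 13127 and 6751 in the BrafYAP libraries, with a log2 fold change on TPM of 0.63 (limma adjusted p = 0.640). Tnfaip3, encoding A20, and the adhesion molecule Icam1 had log2 fold changes of 0.17 and -0.37 (limma adjusted p = 0.827 and 0.533). Of 14 upstream cytokines and receptors 12 were tested on scaled reads, and 0 passed (limma). Among them, 1 had a limma unadjusted p-value under 0.05 (20.2% of all genes). That gene, Tlr2, a receptor for bacterial lipopeptides, had 9511, 9932 and 5056 scaled reads in the YAP and 3744, 2018 and 2584 in the BrafYAP libraries, without overlap (log2 fold change on TPM -1.48, limma adjusted p = 0.103). Il1b, which is made by macrophages and induces these ligands, had 21762, 11378 and 5977 scaled reads in the YAP and 11016, 5931 and 11357 in the BrafYAP libraries (log2 fold change on TPM -0.33, limma adjusted p = 0.742).

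Factors that are induced together with the neutrophil attractants overlapped between the groups. Of 9 such genes 7 were tested on scaled reads, and 0 passed or had an unadjusted p-value under 0.05 (limma). The latter held for 20.2% of all genes. Lcn2, lipocalin 2, had 18838, 5278 and 29894 scaled reads in the YAP and 51525, 17243 and 68509 in the BrafYAP libraries, with a log2 fold change on TPM of 1.44 (limma adjusted p = 0.337). Csf2, encoding GM-CSF, had 1174, 478 and 2275 in the YAP and 2735, 4342 and 1213 in the BrafYAP libraries (log2 fold change on TPM 1.10, limma adjusted p = 0.381).

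Of the genes that destabilize or bind chemokine mRNA, 5 of 5 were tested on scaled reads, and 0 passed (limma). Of the 5, 2 had a limma unadjusted p-value under 0.05 (20.2% of all genes). The most abundant, Zfp36, overlapped, with 12662 to 24765 scaled reads in the YAP and 15110.5 to 17405.5 in the BrafYAP libraries. Its log2 fold change on TPM was -0.29 (limma adjusted p = 0.646). Zfp36l1 and Elavl1 overlapped as well. Zfp36l2, an mRNA decay factor, had 483, 489 and 492 scaled reads in the YAP and 1000.3, 1106 and 882 in the BrafYAP libraries, without overlap, with a log2 fold change on TPM of 0.87 (limma adjusted p = 0.0953). Zc3h12a, encoding the ribonuclease Regnase-1, which cleaves inflammatory mRNAs, had 1085, 808 and 1026 in the YAP and 439, 334 and 249 in the BrafYAP libraries, without overlap in the opposite direction (log2 fold change on TPM -1.01, limma adjusted p = 0.0863). Of 7 sheddases and proteases of chemokines 6 were tested on scaled reads, and 0 passed (limma). A limma unadjusted p-value under 0.05 was found for 2, Mmp9 and Adam17 (20.2% of all genes). Adam17, which sheds CX3CL1 and CXCL16, had 3879, 3742 and 2368 scaled reads in the YAP and 1638, 1560 and 1744 in the BrafYAP libraries, without overlap (log2 fold change on TPM -0.60, limma adjusted p = 0.165), and Adam10, the other sheddase, overlapped, with 993 to 3948 in the YAP and 1803 to 3901 in the BrafYAP libraries.

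Among the 7 other CXC ligands, Cxcl10 and Cxcl11, the interferon-induced ligands of CXCR3, fell in BrafYAP tumors. On TPM, where 4 of the 7 were tested, both passed the test (limma). On scaled reads 6 were tested, 0 passed and 3 had an unadjusted p-value under 0.05 (limma, 20.2% of all genes). Cxcl10 had 11700.1, 4507 and 5760 scaled reads in the YAP and 258, 279 and 567 in the BrafYAP libraries (log2 fold change on TPM -4.03, limma adjusted p = 0.0468, and on scaled reads adjusted p = 0.0517). Cxcl11 had a log2 fold change on TPM of -3.02 (limma adjusted p = 0.0468, and 0.0971 on scaled reads). On scaled reads both passed with array weights (limma adjusted p = 0.00457 and 0.0157) and without BrafYAP 6 (limma adjusted p = 0.0265 and 0.0413). On TPM both calls were lost with a pseudocount of 0.1, no filter or median-ratio rescaling, and without YAP 1, YAP 3, BrafYAP 1 or BrafYAP 2 (limma adjusted p-values from 0.0562 to 0.218), with the same direction in each. Both calls held on TPM with quantile normalization, array weights or exonic length, and without YAP 2 or BrafYAP 6. On the same TPM scale the 9 ligands described here had log2 fold changes between -1.36 and 0.27 where their TPM allowed a test.

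The sorted libraries held thyroid and epithelial RNA beside macrophage RNA. The 12 macrophage markers summed to more scaled reads (771024 and 637542) than the 8 epithelial markers (163683 and 306874) in YAP 1 and YAP 2, whereas the epithelial markers had the larger sum in the other 4 libraries. Pax8, a thyroid transcription factor, had 5188 to 14661 scaled reads in all libraries, the keratin gene Krt18 had 57960 to 158715 in the YAP and 63191 to 162167 in the BrafYAP libraries, and Tg, thyroglobulin, ranged from 51.8 in BrafYAP 2 to 19638 in BrafYAP 6. Of 9 thyroid and 8 epithelial markers tested, 0 passed (limma) and 3 in all had an unadjusted p-value under 0.05 (20.2% of all genes). The median log2 fold changes of the thyroid and epithelial markers were -0.72 and 0.49. Of 14 genes of the response to tissue dissociation, 9 were higher in every BrafYAP library than in every YAP library (11.6% of all genes). The same number had an unadjusted p-value under 0.05 (20.2% of all genes), while 0 passed the test (limma, median log2 fold change 1.79). Their sums were 159743 to 339497 in the YAP and 453771 to 684548 in the BrafYAP libraries, and their part in the values of Cxcl5, Cxcl12 and Cxcl17, which were higher in the same libraries, was not tested.

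The genes whose pattern over the 6 libraries was most like that of each ligand were found by the root-mean-square (RMS) difference of centred log2 values. They were Hsd17b7, Xist and Eno1 for Cxcl1 (0.243 to 0.248, against an own spread of 0.749), and Itpa-ps1, Procr and Snhg5 for Cxcl2 (0.118 to 0.142, own spread 0.492). For Cxcl3 the nearest was its neighbour in the cluster, Pf4 (0.345), then Pbp2 and Cav1, with an own spread of 1.386. Arhgap45, Cyp4f18 and Plk1 were nearest to Cx3cl1 (0.171 to 0.187, own spread 0.761), Tcirg1, Mid1ip1 and Plekhf1 to Cxcl16 (0.111 to 0.208, own spread 0.842), and Clic4, Pkmyt1 and Impdh1 to Cxcl14 (0.091 to 0.101, own spread 0.584). Among the ligands compared on scaled reads, Zfp622, Chmp4b and Fam171a2 were nearest to Cxcl12 (0.110 to 0.140, own spread 0.873), Ttc9, Trpv6 and Ankrd54 to Cxcl17 (0.320 to 0.513, own spread 1.744), and Tpbg, Hoxb2 and Shroom1 to Cxcl5 (0.475 to 0.526, own spread 1.561). With only 6 libraries, many genes can share a pattern, and the lists are a description.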

How the data were processed

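Total RNA (SMART-Seq amplification of 12 cycles, 8 library PCR cycles and paired reads of 50 nt, per the labels) was grouped by library title. STAR 2.6.1d (mm10) and the E/M quantifier of Partek with Ensembl 95 were used by the authors, who deposited TPM with 0.0001 added. Multiplied by genomic span, 70.0 to 75.7% of low values were whole multiples (within 0.05) of 1 step per library, against 23.0 to 25.0% with exonic length (GENCODE M21), so these TPM were divided by the span, introns included. Estimated reads are (TPM - 0.0001) × span / step, and scaled reads keep the authors' scaling between libraries. Reads carry no molecular identifier, so amplified copies of a molecule cannot be told from separate molecules. Read numbers therefore do not give the counting error of molecules. The strand of the counting was not given in the sources used here.

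The genotypes were compared with limma 3.58.1 (R 4.3.3, eBayes with trend, two-sided, no covariate) on log2(TPM + 1), at a mean of 1 or more, or on log2(scaled reads + 1), at a mean of 10 or more, adjusted over all genes tested by Benjamini-Hochberg. Fold changes on these scales understate those of low genes. The code was tested on simulated data. P-values measure only the spread between these libraries. Ligands and lists were chosen with earlier results of these data known. Named genes are the 9 ligands, the 9 receptors, up to 4 of each list by mean level, and the 3 nearest patterns (predicted genes passed over), whereas Cxcl15, Ly6g, Camp, Ngp and the lung genes were chosen after their values were seen. Alternatives varied the pseudocount, filter, scaling, library weights, gene length, replicate block and libraries, and array weights and the other settings were repeated on scaled reads after the data were seen.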

Additional observations from a re-analysis of the deposited data

How the results depend on the processing

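Of 128 values of the 9 ligands under the alternatives, 116 kept their direction and 12, in Cxcl1, Cxcl3, Cxcl14 and Cxcl16, did not, and Cxcl2, Cxcl5, Cxcl12, Cxcl17 and Cx3cl1 kept theirs throughout. The log2 fold change of Cxcl1 became 0.26 with array weights and 0.66 with a replicate block, and that of Cxcl16 became 0.033 and 0.16. YAP 3 and BrafYAP 6 have no partner of the same number, so the block estimates rest on replicate numbers 1 and 2 alone. The block thus sets BrafYAP 6 aside as leaving it out does, and few residual degrees of freedom remain. The log2 fold change of Cxcl3 became -0.013 with a pseudocount of 0.1 and -0.039 with the length division undone. That of Cxcl5 (2.44) was 1.37 with exonic length and 3.23 with the replicate block, and that of Cxcl3 (0.16) was 1.48 with the block. The calls of Cxcl10 and Cxcl11 on TPM were lost with the block (limma adjusted p = 0.2375 for both). With 1 library left out the ranges were -0.62 to 0.54 (Cxcl1), -0.72 to 1.51 (Cxcl3, -0.72 without BrafYAP 1, -0.32 without BrafYAP 2), -0.10 to 0.76 (Cxcl14) and -0.87 to 0.20 (Cxcl16). The number of ligands past the threshold was 0 in the limma fits apart from array weights, which gave 3 (Cx3cl1 -1.16, adjusted p = 0.0183; Cxcl12 1.52, adjusted p = 0.0376; Cxcl17 2.36, adjusted p = 0.0268).

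The number of all genes past the threshold on TPM (18) was 1 with a pseudocount of 0.1, 3 with a minimum mean of 10, 0 with no filter, 79 with quantile normalization, 1 with median-ratio rescaling, 1393 with array weights, 0 with the replicate block, 62 with exonic length, 0 with the length division undone, and 0 to 465 with 1 library left out (465 without YAP 2). On scaled reads (0) it was 62 with quantile normalization, 1884 with array weights and 0 to 142 with 1 library left out (142 without BrafYAP 6). The causes were not tested. Replicate numbers 1 and 2 occur in both genotypes. Deviations of same-numbered libraries correlated at -0.05 and 0.06, and those of differently numbered libraries at -0.05 to 0.09. The labels give no batch, and so few pairs cannot decide whether same-numbered libraries were handled together. Median-ratio rescaling moved the median of all genes on scaled reads from -0.12 to 0.01, and no ligand changed direction under it.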
